A study of Homo sapiens with 8 samples.

Results

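Ribosome biogenesis factors are the proteins that make ribosomal RNA in the nucleolus and process and fold it into the 2 ribosomal subunits. The 53 genes described here were taken by symbol from a list of nucleolar ribosome assembly factors and RNA polymerase I subunits, a rule that uses no measured value, although the list was drawn up with earlier results of these data known. They were read from a table of 27140 genes. All 53 were found, each had at least 97 counts in every library, and all were among the 15289 genes with enough counts to be tested. RNA was sequenced from stable lines of LNCaP, a human prostate adenocarcinoma cell line, made with lentivirus under puromycin selection (1 µg/ml). The control line carried a control hairpin and the knockdown line a hairpin against METTL3, the enzyme that places most methyl groups on adenosines of messenger RNA, each beside a vector whose content is not stated in the labels. The other lines carried the METTL3 hairpin beside a METTL3 that resists it, either wild-type (wild-type rescue) or catalytically dead (mutant rescue). Differences between the rescues are given as mutant against wild-type, and adjusted p-values are those of edgeR over all genes tested unless another tool is named. The METTL3 hairpin is thus shared by every group but the control, and both rescues add METTL3 from a transgene whose promoter the labels do not give. Each of the 4 groups had 2 libraries, and whether these came from separate cultures or clones is not stated, so each p-value measures only the spread between these libraries.

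Ribosome assembly begins when RNA polymerase I transcribes the long ribosomal RNA precursor in the nucleolus. Small nucleolar ribonucleoproteins (snoRNPs) of the box C/D and box H/ACA kinds guide its methylation and pseudouridylation, while the small-subunit processome folds and cuts its first part. Separate factors then build the large subunit, and late factors carry the small subunit to the cytoplasm. Many of these genes are known targets of MYC, a transcription factor that binds the E-box sequence.

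The libraries held 15200343 to 17893241 counts. METTL3 stood at 68.4 and 68.5 CPM in the control, 26.2 and 31.3 in the knockdown, 309 and 325 in the wild-type rescue and 333 and 334 in the mutant rescue (CPM, library-size-scaled counts after TMM). It was thus lowest in both knockdown libraries and far above the control in the 4 rescue libraries, with log2 fold changes of -1.26 (SE 0.05, adjusted p = 1.50e-48) on knockdown and 2.29 (SE 0.03, adjusted p = 1.14e-108) in the mutant rescue against the control. The 7 luminal prostate markers read, KLK3 and HOXB13 among them, ranged from 131 to 3705 CPM. Summed, they took 7372 to 7405 CPM in the control, 5709 to 5754 in the knockdown, 5951 to 6007 in the wild-type rescue and 5978 to 6002 in the mutant rescue. On knockdown 6 of the 7 fell and 1, FOLH1, rose, and between the rescues 4 fell and 3 rose. Of the 9 markers of basal, fibroblast, blood and endothelial cells, KRT14 lay at 2.26 to 3.47 CPM, and another 7, PTPRC and PECAM1 included, stayed at or below 0.709 CPM, COL1A2 with 0 counts in every library. The fibroblast marker COL1A1 stood at 76.3 and 77.4 CPM in the control, 79.7 and 87.9 in the knockdown, 92.9 and 93.2 in the wild-type rescue and 97.1 and 103 in the mutant rescue. It was called higher in all 6 comparisons, by 0.12 on knockdown and 0.38 in the mutant rescue against the control, opposite to most members. The 3 basal markers summed to 3.21 to 3.60 CPM in the control and 2.73 to 4.01 in the knockdown. Their sums were 2.96 to 3.92 CPM in the wild-type rescue and 2.64 to 2.65 in the mutant rescue. Among them TP63, at most 0.709 CPM, was called higher on knockdown and in the wild-type rescue against the control. Between the rescues TP63 was called lower. The 2 endothelial markers summed to at most 0.567 CPM in any library. MYC stood at 512 and 519 CPM in the control, 328 and 328 in the knockdown, 312 and 313 in the wild-type rescue and 213 and 221 in the mutant rescue. Its log2 fold change was -0.65 (SE 0.02, adjusted p = 5.65e-62) on knockdown and -0.52 (SE 0.03, adjusted p = 7.56e-43) between the rescues. The part of these markers or of MYC in the members' values was not tested.

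The summed level of the ribosome biogenesis factors was lower on METTL3 knockdown than in the control, was no nearer to the control with wild-type METTL3, and was lowest with the catalytically dead METTL3. The 53 members together took 5607 and 5586 CPM in the control libraries, 4733 and 4769 in the knockdown, 4524 and 4507 in the wild-type rescue and 3629 and 3666 in the mutant rescue. The groups did not overlap, and the order was the same without NCL and NPM1, the pair with the highest level per length, with 4499 and 4489 CPM in the control and 2980.2 and 3003 in the mutant rescue. In bulk RNA, fewer cells of a type and less RNA per cell cannot be told apart.

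On knockdown 44 of the 53 members fell and 1 rose against the control at an edgeR adjusted p under 0.05 over all genes, where 25.1% of the genes tested fell and 22.9% rose. The members' median log2 fold change was -0.24 (quartiles -0.38 and -0.17), and the median over all genes tested lay between -0.01 and 0.01 in each of the 6 comparisons. Both knockdown libraries lay below both control libraries in 49 members, against 37.4% of all genes tested. In most members the difference was modest: 8 of the 44 fell by 0.5 or more on the log2 scale, a mark that 5.33% of all genes reached.

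In the wild-type rescue, most members lay below the control. Against the knockdown 17 of 53 fell and 1, DDX56, rose, with 13.2% and 10.8% of all genes called in those directions and a member median of -0.07. No overlap and lower values were seen in 28 members (all genes 28.3%) and no overlap and higher values in 6 (all genes 29.4%), and 1 fell by 0.5 or more (all genes 0.706%). The remaining 35 members were not called, which does not show that they were equal. With the DESeq2 Wald test in place of edgeR, 11 members fell. The largest of the 17 falls were those of POLR1A at -0.56, UTP20 at -0.43, HEATR1 at -0.30, POLR1B at -0.28 and WDR12 and TSR1 at -0.25 each. Calls of 5 of the 17 were lost on leaving out 1 library. NOLC1 (-0.06) was lost without any library but mutant rescue replicate 1, with adjusted p 0.0287 to 0.217 over 14 alternatives. RRP12 (-0.13) was lost without either control or either knockdown library or wild-type rescue replicate 2, with adjusted p 0.0304 to 0.426 over 14 alternatives. BOP1 (-0.23) and PES1 (-0.13) were lost without knockdown replicate 2 or wild-type rescue replicate 2, with adjusted p 0.0127 to 0.374 over 14 alternatives and 0.00371 to 0.213 over 14 alternatives. MYBBP1A (-0.12) was lost without replicate 1 of the knockdown or of the wild-type rescue, with adjusted p 0.00419 to 0.116 over 14 alternatives. Against the control the wild-type rescue was lower in 47 members and higher in 0 (all genes 25.5% and 23.8%), with a median of -0.38. Its libraries lay below both control libraries in 48 members (all genes 36.8%), and 14 fell by 0.5 or more (all genes 5.38%). The highest member there was NHP2, at 0.07, not called. Higher members also numbered 0 in that comparison at an unadjusted edgeR p under 0.05 and by DESeq2.

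The mutant rescue had the lowest members. Against the wild-type rescue 44 of 53 fell and 0 rose (all genes 20.3% and 21%), with a median of -0.28 and 10 members called at or below -0.5 (all genes 3.93%). Its libraries lay below both of the wild-type rescue in 47 members (all genes 33.7%). Against the knockdown 42 fell and 0 rose (all genes 25.8% and 25.9%), with a median of -0.39. Both mutant libraries were below both knockdown libraries in 44 (all genes 37%), and 17 fell by 0.5 or more (all genes 7.06%). Against the control 50 fell and 0 rose (all genes 29.7% and 29.1%), with a median of -0.70 and 37 members called at or below -0.5 (all genes 10.6%). In 52 members the mutant rescue lay below both control libraries (all genes 39%). In 43 of 53 members both mutant rescue libraries lay below the other 6 libraries, as in 19.9% of all genes, and in 46 both control libraries lay above the other 6, as in 21.8% of all genes. The counts of 0 higher members came from edgeR; by DESeq2 they were 0 as well, and at an unadjusted edgeR p under 0.05 they were 1 against the knockdown, 0 against the wild-type rescue and 0 against the control. Leaving out knockdown replicate 2 gave 1 higher member against the knockdown.

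**Figure D1:**
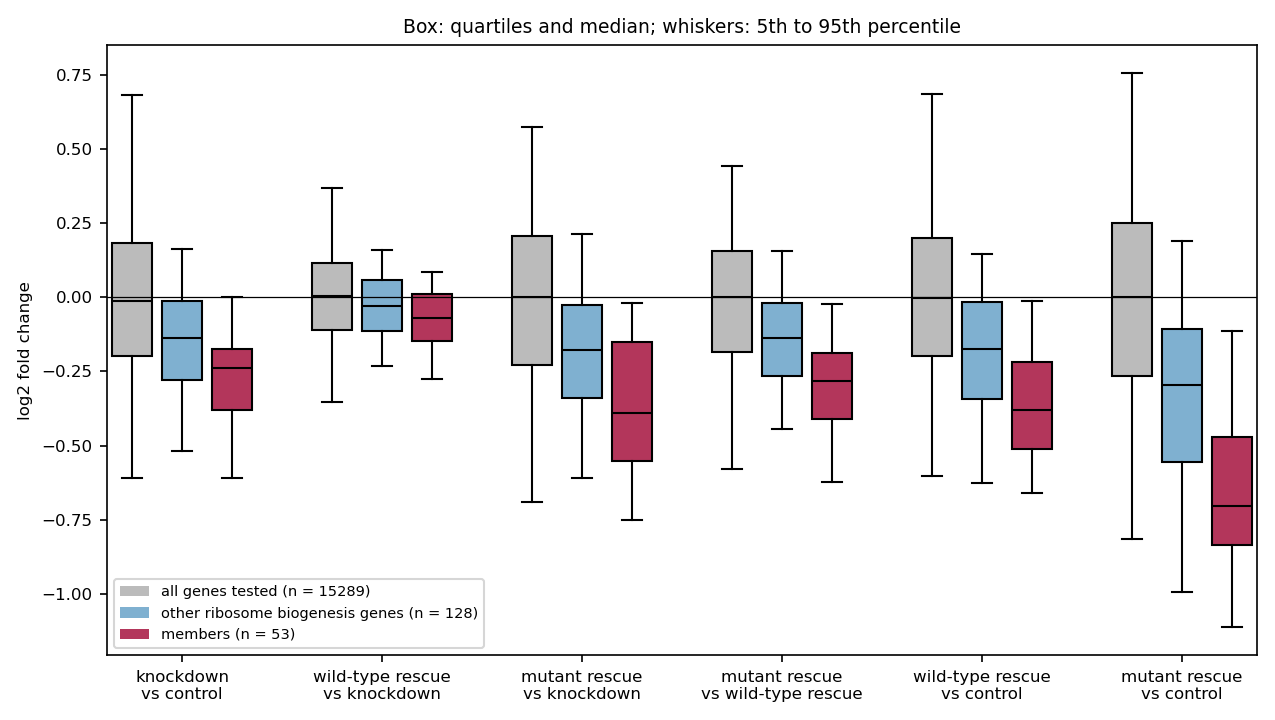
Log2 fold change (vertical axis) in the 6 comparisons for all 15289 genes tested, 128 other ribosome biogenesis genes and the 53 members; boxes give quartiles and median and whiskers the 5th to 95th percentile. The member boxes lie below those of all genes, least so for the wild-type rescue against the knockdown (median -0.07) and most so for the mutant rescue against the control (median -0.70).

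**Figure D2:**
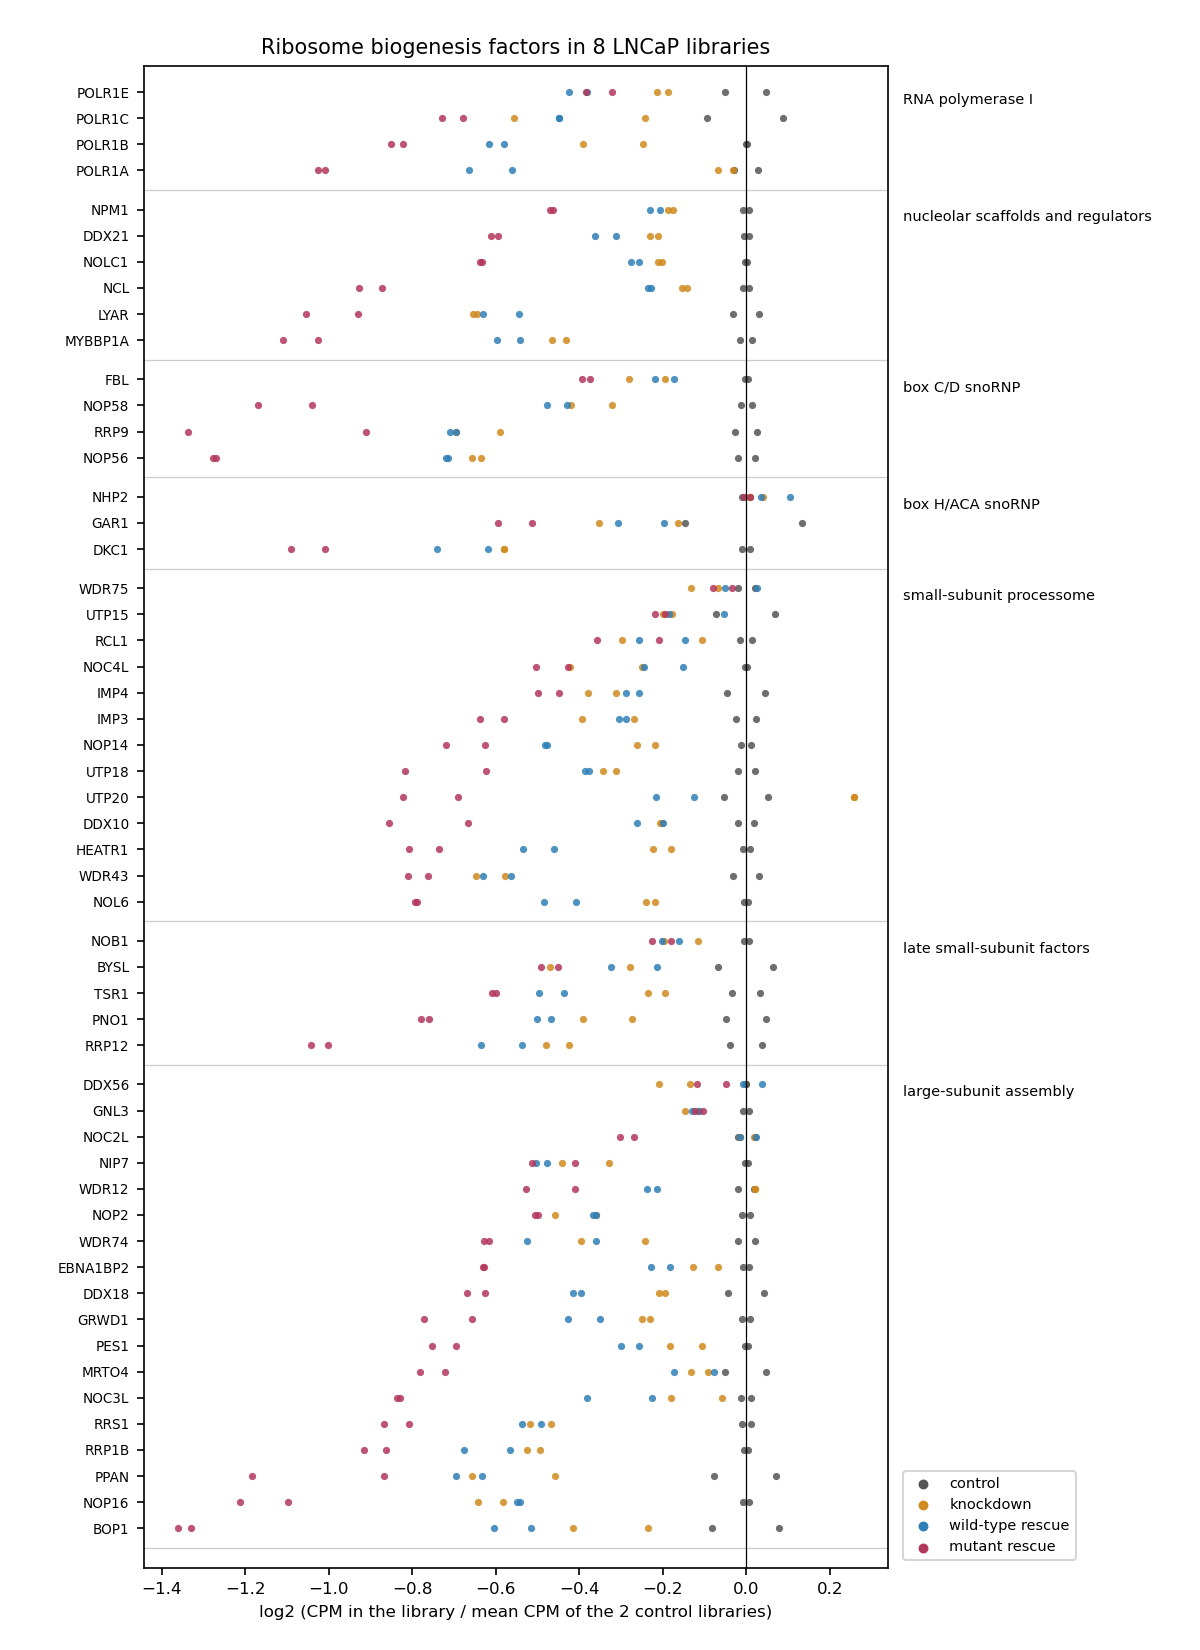
Each point is 1 library, placed by the log2 ratio of its CPM to the mean of the 2 control libraries (horizontal axis), for each of the 53 members grouped by role. The mutant rescue points lie furthest left in most rows, below the other 6 libraries in 43 members, and UTP20 is the row with its knockdown points furthest right.

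Promoter sequences were read because the members moved together and many are known MYC targets. RefSeq promoter entries (GRCh38.p14, 250 bases before to 50 after the gene's start) matched 45 of the 53 members. The E-box CACGTG, which reads the same on both strands, was found in 17 of the 45 (37.8%), against 9.98% of 11737 promoters of tested genes and 7.26% of all 35116 entries. Of 19 such matches 16 began between 10 bases before and 36 bases after the start. These bounds are the outermost positions of the 16 themselves. Positions in other promoters were not compared, so the closeness to the start cannot be called a trait of the members. The ETS-type motif CCGGAAG, searched on both strands, was found in 33.3% of members and 18.2% of tested genes the NRF1 motif, given by name alone, in 11.1% and 2.30%, and the TATA sequence TATAAA in 2.22% and 5.99%. No match of a motif overlapped a match of another in a member. The 30 bases around an E-box, in capitals, are shown for the 8 members holding one that were lowest in the mutant rescue against the control, each 5′ to 3′ on the gene's strand:
RRP9: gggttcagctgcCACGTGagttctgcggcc
MYBBP1A: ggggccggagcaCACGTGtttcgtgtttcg
NOC3L: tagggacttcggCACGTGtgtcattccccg
NOL6: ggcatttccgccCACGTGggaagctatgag
WDR43: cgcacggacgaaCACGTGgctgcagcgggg
PNO1: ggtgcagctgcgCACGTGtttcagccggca
UTP20: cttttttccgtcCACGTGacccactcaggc
MRTO4: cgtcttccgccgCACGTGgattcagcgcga
These windows lie in GRCh38.p14 as follows: RRP9 at chr3:51941892-51941921 on the minus strand, MYBBP1A at chr17:4555340-4555369 on the minus strand, NOC3L at chr10:94362903-94362932 on the minus strand, NOL6 at chr9:33473894-33473923 on the minus strand, WDR43 at chr2:28894658-28894687 on the plus strand, PNO1 at chr2:68157885-68157914 on the plus strand, UTP20 at chr12:101280083-101280112 on the plus strand and MRTO4 at chr1:19251807-19251836 on the plus strand. The E-box of UTP20 ends before the start, that of RRP9 spans it, and those of the other 6 follow it.

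On knockdown the median log2 fold change was -0.24 over the 17 members with an E-box and -0.22 over the 28 matched members without. Between the rescues the medians were -0.33 and -0.27. For the wild-type rescue against the control they were -0.30 and -0.32, and for the mutant rescue against the control -0.72 and -0.61. Against the knockdown they were -0.06 and -0.04 in the wild-type rescue and -0.43 and -0.33 in the mutant rescue. The ranges overlapped: in the mutant rescue against the control, -1.11 to -0.28 with an E-box and -1.27 to 0.00 without. A match is a description of letters, not of binding. UTP18 holds 2 E-boxes, the first beginning 89 bases before the start and the second 5 bases after it, past the printed stretch. UTP20, the member that rose on knockdown, has its E-box 10 bases before the start. NOP56, among the largest falls, has no E-box in its window. The 250 bases before the start are printed for each, with E-boxes in capitals:
UTP18: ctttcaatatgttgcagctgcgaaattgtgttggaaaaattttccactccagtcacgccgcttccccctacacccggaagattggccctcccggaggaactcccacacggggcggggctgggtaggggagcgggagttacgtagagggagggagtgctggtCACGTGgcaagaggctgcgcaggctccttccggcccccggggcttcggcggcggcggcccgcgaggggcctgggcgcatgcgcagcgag
UTP20: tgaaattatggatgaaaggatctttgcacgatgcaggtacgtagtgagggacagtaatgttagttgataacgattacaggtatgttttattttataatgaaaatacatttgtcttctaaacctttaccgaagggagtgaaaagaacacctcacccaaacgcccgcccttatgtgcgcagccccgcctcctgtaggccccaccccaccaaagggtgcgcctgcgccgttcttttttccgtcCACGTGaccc
NOP56: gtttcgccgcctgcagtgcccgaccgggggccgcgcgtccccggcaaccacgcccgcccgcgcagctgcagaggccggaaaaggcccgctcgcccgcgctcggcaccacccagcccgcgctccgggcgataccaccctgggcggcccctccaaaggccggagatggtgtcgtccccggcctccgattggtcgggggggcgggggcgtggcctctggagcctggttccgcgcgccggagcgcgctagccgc
They lie on the plus strand of GRCh38.p14 at chr17:51260296-51260545, chr12:101279855-101280104 and chr20:2652382-2652631.

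Of RNA polymerase I, which transcribes the ribosomal RNA precursor, the members hold 4 subunits, not the whole enzyme. POLR1B, POLR1C and POLR1E fell on knockdown. POLR1A, POLR1B and POLR1E were called lower in the wild-type rescue than in the knockdown, and all 4 were lower than the control in both rescues. POLR1A, the largest catalytic subunit, stood at 79.5 and 82.7 CPM in the control, 77.5 and 79.3 in the knockdown, 54.98 and 51.2 in the wild-type rescue and 40.3 and 39.8 in the mutant rescue. It was nearly level between control and knockdown, not called, and then lower in each rescue, with no overlap between those groups. Its log2 fold change was -0.05 (SE 0.05, adjusted p = 0.373) on knockdown, -0.56 (SE 0.05, adjusted p = 9.49e-21) in the wild-type rescue against the knockdown and -0.40 (SE 0.06, adjusted p = 3.40e-10) between the rescues. With the trend with gene length removed POLR1A was called lower on knockdown, at -0.13 (adjusted p = 0.00869), and over the other 13 alternatives its adjusted p there ran from 0.253 to 0.793. POLR1B, the second catalytic subunit, stood at 54.8 and 54.7 CPM in the control, 41.7 and 46.1 in the knockdown, 35.7 and 36.6 in the wild-type rescue and 30.4 and 30.97 in the mutant rescue. The 4 groups did not overlap. Its log2 fold change was -0.32 (SE 0.05, adjusted p = 1.58e-07) on knockdown and -0.24 (SE 0.06, adjusted p = 0.00137) between the rescues. POLR1C, a subunit shared with RNA polymerase III, stood at 23.3 and 26.5 CPM in the control, 16.9 and 21.03 in the knockdown, 18.2 and 18.2 in the wild-type rescue and 15.02 and 15.5 in the mutant rescue. The mutant libraries were lowest. It fell on knockdown with a log2 fold change of -0.40 (SE 0.08, adjusted p = 2.31e-05). The call between the rescues, -0.25 (SE 0.09, adjusted p = 0.0226), was lost with the DESeq2 Wald test (adjusted p = 0.146), without wild-type rescue replicate 1 (0.0608), without wild-type rescue replicate 2 (0.0774), without mutant rescue replicate 1 (0.125) and without mutant rescue replicate 2 (0.0628). POLR1C had adjusted p from 0.0202 to 0.146 over 14 alternatives. POLR1E, a subunit that helps the enzyme start and elongate, stood at 57.8 and 53.98 CPM in the control, 48.2 and 49.1 in the knockdown, 41.6 and 42.9 in the wild-type rescue and 42.8 and 44.8 in the mutant rescue. Its 2 rescues overlapped, below the control and knockdown. Its fall on knockdown, -0.20 (SE 0.05, adjusted p = 5.75e-04), was lost without control replicate 1 (adjusted p = 0.0567). POLR1E had adjusted p from 5.16e-04 to 0.0567 over 14 alternatives. Its fall in the wild-type rescue against the knockdown, -0.20 (SE 0.05, adjusted p = 0.00258), was lost with the DESeq2 Wald test (adjusted p = 0.0509). POLR1E had adjusted p from 8.54e-05 to 0.0509 over 14 alternatives. Exons of POLR1C overlap those of XPO5 and other genes on the opposite strand in GENCODE v29, and whether counting used strand is not given in the sources used here.

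All 6 nucleolar scaffolds and regulators fell on knockdown and again between the rescues, with medians of -0.21 and -0.39. NCL (nucleolin), an abundant nucleolar RNA-binding protein, stood at 762 and 754 CPM in the control, 681 and 687 in the knockdown, 644 and 647 in the wild-type rescue and 399 and 414 in the mutant rescue. The knockdown and wild-type rescue libraries lay near each other, and both mutant libraries were far below. NCL fell with a log2 fold change of -0.15 (SE 0.02, adjusted p = 6.82e-11) on knockdown and -0.67 (SE 0.02, adjusted p = 3.86e-65) between the rescues. MYBBP1A, a nucleolar protein that binds MYB and acts on ribosomal RNA synthesis, stood at 178 and 181 CPM in the control, 133 and 129.9 in the knockdown, 119 and 123 in the wild-type rescue and 88.1 and 83.2 in the mutant rescue. No groups overlapped, and its log2 fold changes were -0.45 (SE 0.03, adjusted p = 3.46e-26) and -0.50 (SE 0.04, adjusted p = 1.04e-24) in the same comparisons. LYAR, a nucleolar zinc-finger protein, stood at 30.6 and 31.998 CPM in the control, 19.9 and 20.02 in the knockdown, 20.2 and 21.5 in the wild-type rescue and 15.1 and 16.4 in the mutant rescue. Control libraries were high, mutant libraries low, and the knockdown and wild-type rescue lay between, with log2 fold changes of -0.65 (SE 0.08, adjusted p = 2.23e-13) and -0.41 (SE 0.09, adjusted p = 5.52e-05). NPM1 (nucleophosmin), NOLC1 and the helicase DDX21 fell by smaller amounts on knockdown, at -0.18, -0.21 and -0.22. NPM1 has processed pseudogenes that could take or give reads, so its level is uncertain.

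All 4 box C/D snoRNP proteins fell on knockdown, with a median log2 fold change of -0.51, and 0 were called in the wild-type rescue against the knockdown by edgeR, also at an unadjusted p under 0.05, or by DESeq2. NOP56, a core protein of the particle, stood at 184 and 179 CPM in the control, 115 and 117 in the knockdown, 111 and 110.5 in the wild-type rescue and 75.4 and 75.04 in the mutant rescue. The groups did not overlap, and the mutant libraries were lowest. The log2 fold change was -0.65 (SE 0.03, adjusted p = 2.72e-40) on knockdown and -0.56 (SE 0.04, adjusted p = 5.00e-27) between the rescues. NOP58, its partner in the particle, stood at 95.4 and 97.1 CPM in the control, 77.1 and 71.99 in the knockdown, 71.5 and 69.1 in the wild-type rescue and 42.8 and 46.8 in the mutant rescue. The knockdown and wild-type rescue lay side by side. Its log2 fold changes were -0.37 (SE 0.05, adjusted p = 1.64e-12) and -0.65 (SE 0.05, adjusted p = 5.18e-23). RRP9, which binds the U3 snoRNA, stood at 33.7 and 32.5 CPM in the control, 20.4 and 21.99 in the knockdown, 20.4 and 20.2 in the wild-type rescue and 17.6 and 13.1 in the mutant rescue. Its mutant libraries differed from each other more than those of the other groups. It fell on knockdown by 0.64 (SE 0.08, adjusted p = 4.56e-13). The fall between the rescues, -0.41 (SE 0.09, adjusted p = 1.00e-04), was lost without mutant rescue replicate 2 (adjusted p = 0.136). RRP9 had adjusted p from 2.03e-06 to 0.136 over 14 alternatives. FBL (fibrillarin), the methyltransferase of the particle, fell less, at -0.24 (SE 0.03, adjusted p = 7.41e-12) and -0.19 (SE 0.03, adjusted p = 2.09e-07).

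Of the 3 box H/ACA snoRNP proteins, DKC1 and GAR1 fell and NHP2 was not called in any comparison. DKC1 (dyskerin), the pseudouridine synthase, stood at 116 and 114 CPM in the control, 77.01 and 76.9 in the knockdown, 74.9 and 68.8 in the wild-type rescue and 53.99 and 57.2 in the mutant rescue. No groups overlapped, control high and mutant low. Its log2 fold change was -0.58 (SE 0.04, adjusted p = 1.53e-26) on knockdown and -0.37 (SE 0.05, adjusted p = 9.38e-11) between the rescues. GAR1 stood at 19.5 and 16.1 CPM in the control, 13.9 and 15.9 in the knockdown, 14.4 and 15.5 in the wild-type rescue and 11.8 and 12.5 in the mutant rescue. The mutant libraries were lowest, and its 2 control libraries differed more than those of DKC1. Its fall on knockdown, -0.26 (SE 0.10, adjusted p = 0.0182), was lost with the DESeq2 Wald test (adjusted p = 0.186), with the length trend removed (0.0506), without control replicate 1 (0.482) and without knockdown replicate 1 (0.287). GAR1 had adjusted p from 0.00335 to 0.482 over 14 alternatives. The fall between the rescues, -0.31 (SE 0.10, adjusted p = 0.0126), was lost with the DESeq2 Wald test (adjusted p = 0.114), without wild-type rescue replicate 2 (0.139) and without mutant rescue replicate 1 (0.104). GAR1 had adjusted p from 0.0115 to 0.139 over 14 alternatives. NHP2, another core protein, stood at 101 and 102 CPM in the control, 104 and 102 in the knockdown, 104 and 109 in the wild-type rescue and 102 and 101 in the mutant rescue. It was chosen for full values after they were seen. The libraries of the groups lay close together, and the log2 fold change was 0.02 (SE 0.04) on knockdown and -0.07 (SE 0.04) between the rescues. NHP2 exons overlap those of RMND5B on the opposite strand.

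In the small-subunit processome 11 of 13 members fell on knockdown, 1 (UTP20) rose and WDR75 was not called. Between the rescues 10 fell. WDR43, a processome component that also acts on RNA polymerase I transcription, stood at 82.9 and 86.6 CPM in the control, 56.8 and 54.1 in the knockdown, 57.4 and 54.8 in the wild-type rescue and 48.4 and 49.99 in the mutant rescue. The control libraries were high, the knockdown and wild-type rescue overlapped, and the mutant libraries lay just under them. Its log2 fold change was -0.61 (SE 0.05, adjusted p = 1.36e-24) on knockdown and -0.19 (SE 0.05, adjusted p = 0.00214) between the rescues. UTP20, a large scaffold protein of the processome, stood at 39.5 and 36.7 CPM in the control, 45.6 and 45.6 in the knockdown, 34.9 and 32.8 in the wild-type rescue and 21.6 and 23.6 in the mutant rescue. Knockdown libraries were the highest, and the mutant libraries the lowest, with no overlap of knockdown and control. UTP20 rose by 0.26 (SE 0.06, adjusted p = 1.05e-04) on knockdown. It was lower by 0.43 (SE 0.06, adjusted p = 1.31e-09) in the wild-type rescue than in the knockdown. Between the rescues it fell by 0.58 (SE 0.07, adjusted p = 2.99e-12). IMP4, a U3-associated protein, stood at 88.3 and 93.98 CPM in the control, 73.4 and 70.2 in the knockdown, 76.2 and 74.6 in the wild-type rescue and 64.5 and 66.8 in the mutant rescue. The controls were highest and the mutant libraries lowest, and its log2 fold changes were -0.34 (SE 0.05, adjusted p = 2.77e-11) and -0.20 (SE 0.05, adjusted p = 2.38e-04). DDX10, an RNA helicase, stood at 40.5 and 39.4 CPM in the control, 34.8 and 34.6 in the knockdown, 34.8 and 33.3 in the wild-type rescue and 22.1 and 25.2 in the mutant rescue. The mutant libraries were low and the other groups close. It fell by 0.52 (SE 0.07, adjusted p = 1.67e-10) between the rescues. The DDX10 fall on knockdown, -0.20 (SE 0.06, adjusted p = 0.00403), was lost with the DESeq2 Wald test (adjusted p = 0.0933) and without control replicate 1 (0.0504). DDX10 had adjusted p from 0.00354 to 0.0933 over 14 alternatives. Other members, UTP18, NOL6, NOP14, NOC4L, IMP3, HEATR1, UTP15 and RCL1, had log2 fold changes on knockdown from -0.34 (NOC4L) to -0.19 (UTP15), all called. The UTP15 call was lost with the DESeq2 Wald test (adjusted p = 0.150), without control replicate 1 (0.278) and without knockdown replicate 2 (0.0654). UTP15 had adjusted p from 0.00660 to 0.278 over 14 alternatives. That of RCL1 was lost with the DESeq2 Wald test (adjusted p = 0.108), without control replicate 2 (0.0531) and without knockdown replicate 1 (0.285). RCL1 had adjusted p from 6.12e-04 to 0.285 over 14 alternatives. UTP15, RCL1 and WDR75 were not called between the rescues.

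All 5 late small-subunit factors fell on knockdown and 4 fell between the rescues, where NOB1, the nuclease that makes the last cut of small-subunit RNA, was not called. DESeq2 called 1 of the 5 between the rescues. Without either mutant rescue library the calls of BYSL, PNO1 and TSR1 there were lost. The NOB1 fall on knockdown, -0.15 (SE 0.04, adjusted p = 0.00162), was lost without knockdown replicate 2 (adjusted p = 0.0728). NOB1 had adjusted p from 0.00140 to 0.0728 over 14 alternatives. RRP12, an export factor of pre-ribosomal particles, stood at 77.6 and 73.6 CPM in the control, 54.2 and 56.3 in the knockdown, 52.1 and 48.7 in the wild-type rescue and 36.7 and 37.8 in the mutant rescue. None of its 4 groups overlapped. Its log2 fold changes were -0.45 (SE 0.05, adjusted p = 7.95e-16) on knockdown and -0.43 (SE 0.06, adjusted p = 4.32e-11) between the rescues. BYSL (bystin) stood at 28.3 and 31.1 CPM in the control, 24.5 and 21.4 in the knockdown, 23.7 and 25.6 in the wild-type rescue and 21.1 and 21.7 in the mutant rescue. The controls were highest, the mutant and knockdown libraries overlapping. BYSL fell by 0.37 (SE 0.08, adjusted p = 1.51e-05) on knockdown. The BYSL fall between the rescues, -0.21 (SE 0.08, adjusted p = 0.0297), was lost with the DESeq2 Wald test (adjusted p = 0.173), without wild-type rescue replicate 2 (0.273), without mutant rescue replicate 1 (0.141) and without mutant rescue replicate 2 (0.0728). BYSL had adjusted p from 0.0227 to 0.273 over 14 alternatives. PNO1, an RNA-binding partner of NOB1, stood at 22.6 and 21.1 CPM in the control, 16.6 and 18.05 in the knockdown, 15.8 and 15.4 in the wild-type rescue and 12.9 and 12.7 in the mutant rescue. Control libraries were highest and mutant ones lowest. PNO1 fell by 0.33 (SE 0.09, adjusted p = 5.94e-04) on knockdown, and its fall between the rescues, -0.28 (SE 0.10, adjusted p = 0.0157), was lost with the DESeq2 Wald test (adjusted p = 0.104), without wild-type rescue replicate 1 (0.0702), without mutant rescue replicate 1 (0.0578) and without mutant rescue replicate 2 (0.0854). PNO1 had adjusted p from 0.0143 to 0.104 over 14 alternatives. TSR1, a factor of late small-subunit maturation, had log2 fold changes of -0.21 and -0.25 in the knockdown against the control and in the wild-type rescue against the knockdown, both called. The TSR1 fall between the rescues, -0.14 (SE 0.05, adjusted p = 0.0144), was lost with the DESeq2 Wald test (adjusted p = 0.0984), without wild-type rescue replicate 2 (0.178), without mutant rescue replicate 1 (0.0543) and without mutant rescue replicate 2 (0.0786). TSR1 had adjusted p from 0.00765 to 0.178 over 14 alternatives.

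Of the 18 large-subunit assembly factors 13 fell on knockdown and 15 between the rescues. In the mutant against the control 17 fell, from -1.34 (BOP1) and -1.15 (NOP16) to -0.11 (GNL3), with RRP1B at -0.89, RRS1 at -0.84 and the RNA methyltransferase NOP2 at -0.50. NOP16, a nucleolar protein of the early large subunit, stood at 45.04 and 45.5 CPM in the control, 30.2 and 28.98 in the knockdown, 30.9 and 31.1 in the wild-type rescue and 19.5 and 21.2 in the mutant rescue. Its knockdown and wild-type rescue libraries were close together, between a high control and a low mutant. Its log2 fold changes were -0.61 (SE 0.06, adjusted p = 2.05e-16) and -0.61 (SE 0.07, adjusted p = 2.59e-12). BOP1, which with PES1 and WDR12 forms the PeBoW complex, stood at 29.1 and 26.01 CPM in the control, 20.6 and 23.4 in the knockdown, 19.3 and 18.1 in the wild-type rescue and 10.7 and 10.95 in the mutant rescue. The mutant libraries were lowest by far. BOP1 fell with a log2 fold change of -0.33 (SE 0.08, adjusted p = 2.03e-04) on knockdown and -0.78 (SE 0.10, adjusted p = 1.72e-11) between the rescues, its largest step. Of its complex partners, PES1 had, on knockdown, a log2 fold change of -0.15, a call that was lost with the DESeq2 Wald test (adjusted p = 0.0589) and without knockdown replicate 1 (0.101). PES1 had adjusted p from 0.00187 to 0.101 over 14 alternatives. WDR12 stood at 0.02 (SE 0.05), not called. Between the rescues PES1 and WDR12 fell too, at -0.44 and -0.24. PPAN, the homolog of the fly protein Peter pan, stood at 14.6 and 13.2 CPM in the control, 8.80 and 10.1 in the knockdown, 8.57 and 8.95 in the wild-type rescue and 7.61 and 6.11 in the mutant rescue. Its control libraries were highest. It fell on knockdown by 0.56 (SE 0.11, adjusted p = 8.48e-06). The PPAN call between the rescues, -0.36 (SE 0.13, adjusted p = 0.0234), was lost with the DESeq2 Wald test (adjusted p = 0.141), without wild-type rescue replicate 2 (0.124) and without mutant rescue replicate 2 (0.367). PPAN had adjusted p from 0.0113 to 0.367 over 14 alternatives. PPAN shares exons on its own strand with the read-through gene PPAN-P2RY11, listed at 0 counts in all 8 libraries, so its level is uncertain.

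MRTO4, a homolog of a ribosomal stalk protein, stood at 26.5 and 28.3 CPM in the control, 24.99 and 25.7 in the knockdown, 25.97 and 24.3 in the wild-type rescue and 15.9 and 16.6 in the mutant rescue. The control, knockdown and wild-type rescue lay close together and both mutant libraries were low. Its knockdown log2 fold change of -0.11 (SE 0.07) was not called, and that between the rescues was -0.62 (SE 0.08, adjusted p = 1.41e-10). NOC3L and EBNA1BP2 stood at -0.12 (SE 0.09) and -0.10 (SE 0.06) on knockdown, not called, and -0.54 and -0.42 between the rescues, both called. NOC2L was called in each comparison with the mutant rescue, at -0.29 against the control, and stood at 0.00 (SE 0.03) on knockdown. GNL3 (nucleostemin), a nucleolar GTPase shown with NHP2 as a member that moved little and chosen after its values were seen, stood at 314 and 317 CPM in the control, 285 and 292 in the knockdown, 289 and 292 in the wild-type rescue and 290.1 and 294 in the mutant rescue. The control libraries were the highest and the other 6 lay within a narrow band. GNL3 fell by 0.13 (SE 0.02, adjusted p = 2.11e-06) on knockdown and was not called between the rescues, at 0.01 (SE 0.03). NIP7 had log2 fold changes of -0.38 on knockdown and 0.03 (SE 0.06), not called, between the rescues. DDX56, a helicase, fell on knockdown at -0.17 and rose in the wild-type rescue against the knockdown at 0.19 (SE 0.04, adjusted p = 2.50e-04).

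**Figure D3:**
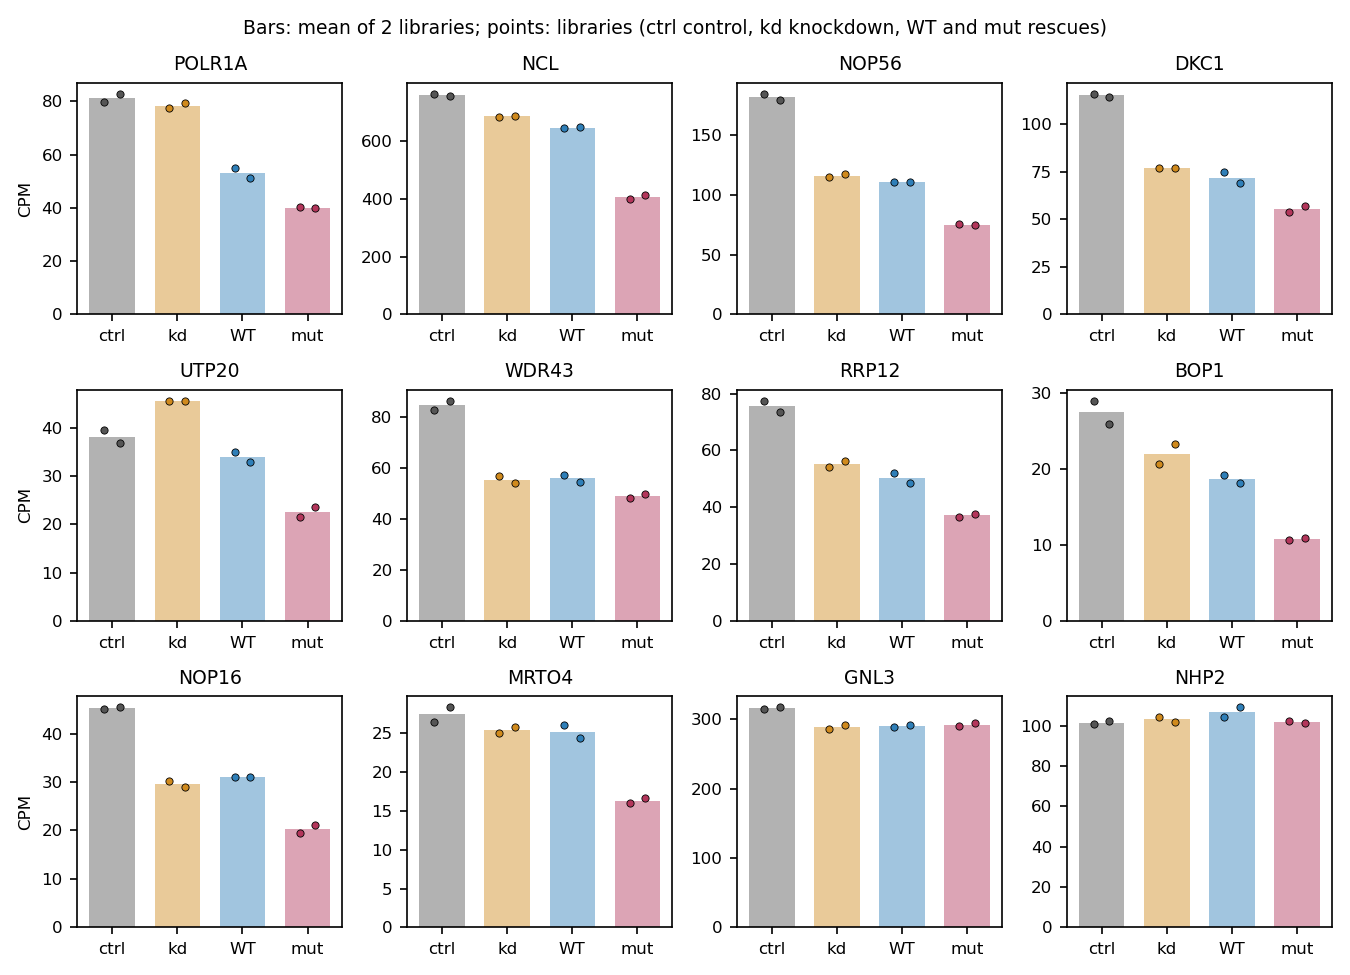
CPM (vertical axis, from 0) in the 4 groups for 12 members; bars are means of the 2 libraries of a group and points are libraries. The mutant rescue bar is the lowest in every panel but those of GNL3 and NHP2, and UTP20 is highest in the knockdown, at 45.6 CPM in both libraries.

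Knockdown against control and the 2 rescues against each other share no library, so their member calls can be set side by side. Of the 44 members lower on knockdown and the 44 lower between the rescues, 37 were lower in both, 84.1% of each list. As 44 of the 53 members were lower in each comparison, unrelated lists of that size would share about as many. The overlap therefore does not link the 2 falls. Over all genes tested 887 were lower in both, 23.2% of the knockdown list and 28.6% of the mutant list. Beside the 23.2% stands the 20.3% of all genes called lower between the rescues, and beside the 28.6% the 25.1% called lower on knockdown. Sizes of the 2 falls were hardly related over the 53 members (Pearson r 0.135, Spearman rho 0.164, described over genes that share libraries and are not replicates); over all genes r was -0.127 and rho -0.0612. LYAR, NOP56 and RRP9 fell most on knockdown, while BOP1 and NCL fell most between the rescues.

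**Figure D4:**
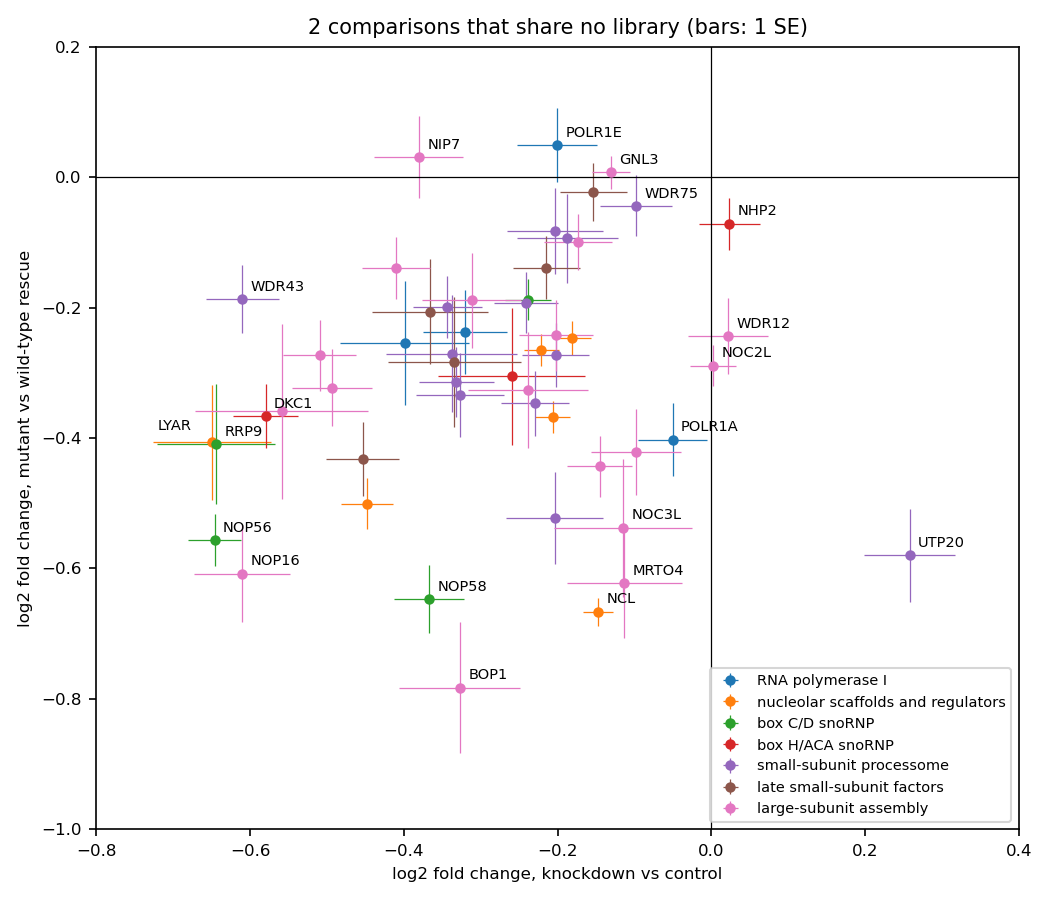
Log2 fold change on knockdown against control (horizontal axis) against that between the rescues (vertical axis) for the 53 members, with bars of 1 SE; colour gives role. Most points lie below and left of 0, while UTP20 is furthest right and POLR1E, NIP7 and GNL3 are above it.

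Among 128 other ribosome biogenesis genes, all of them tested, 71 fell and 9 rose on knockdown (all genes 25.1% and 22.9%, median of the 128 -0.14). Between the rescues 63 fell and 12 rose (all genes 20.3% and 21%, median of the 128 -0.14). In the mutant against the control 94 fell and 9 rose (all genes 29.7% and 29.1%, median of the 128 -0.29). The share lower on knockdown was 55.5% of these genes and 83.0% of the 53 members. By role, 38 of 43 large-subunit factors and 30 of 35 processome genes fell in the mutant rescue against the control. Of the 14 RNA exosome genes 6 did, nearer to the 29.7% of all genes. RPF2, a large-subunit factor, had the largest fall on knockdown, at -0.83 (SE 0.05, adjusted p = 1.91e-34), followed by CCDC86 at -0.60 and NXT1 at -0.60. Between the rescues RRP15 fell by 1.05 (SE 0.11, adjusted p = 7.42e-15), and SPATA5 and UTP4 followed at -0.74 and -0.58. Others rose: C1D, an exosome cofactor, at 0.58 and NOP10, a core H/ACA protein, at 0.47 (SE 0.04, adjusted p = 2.21e-22) on knockdown, the NOP10 rise beside falls of DKC1 and GAR1. SPATA5, lower between the rescues, was called higher on knockdown. That call was lost with the DESeq2 Wald test (log2 fold change 0.26, adjusted p = 0.181) and with the length trend removed (0.17, adjusted p = 0.148). It was also lost without control replicate 1 (log2 fold change 0.26), without control replicate 2 (0.25) and without knockdown replicate 1 (0.19). The C1D call was lost with the DESeq2 Wald test (adjusted p = 0.0528) and without control replicate 2 (0.0765). C1D had adjusted p from 0.00105 to 0.0765 over 14 alternatives. Between the rescues RIOK3 was higher by 0.33 (SE 0.04, adjusted p = 5.02e-11) and TAF1C by 0.24. The RRP8 call, at 0.25, was lost with the DESeq2 Wald test (adjusted p = 0.115), without wild-type rescue replicate 2 (0.206) and without mutant rescue replicate 1 (0.175). RRP8 had adjusted p from 0.00934 to 0.206 over 14 alternatives.

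Per length, the members stood above most genes in the control, with a median of 24.0 CPM per kilobase against 7.94 over all genes tested. NCL was highest at 279 CPM per kilobase, then NPM1 at 193, FBL at 169, GNL3 at 148 and NHP2 at 119, and UTP20 was lowest at 4.23. In the basic annotation of GENCODE v29, exons of 24 members overlap those of another gene, of 5 on the same strand and 20 on the opposite strand. Small RNA genes, snoRNA and miRNA genes among them, were left out of these counts.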

How the data were processed

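RNA of 8 LNCaP libraries in 4 groups was sequenced after a stranded messenger RNA kit, per the labels' protocols. The authors deposited raw counts per gene and a gene length in bases, a column of other kind; the submitters' processing notes name hg19, STAR 2.5.2b, CASAVA, DESeq2 and featureCounts, with parameters and counting strand not given in the sources used here. The model was fitted in edgeR 4.0.16 (R 4.3.3): filterByExpr by group (minimum count 10, minimum total 15), TMM scaling, and a robust quasi-likelihood model with a mean per group over all 8 libraries. The 6 comparisons were tested two-sided over 15289 genes, and a call is a Benjamini-Hochberg adjusted p under 0.05. SE is the absolute log2 fold change over the square root of F. With 2 libraries a group no exact permutation test can reach 0.05. Totals of 15200343 to 17893241 counts set the depth (biological coefficient of variation 1.40%), and, lacking molecular identifiers, counts can hold copies of the same molecule. Libraries of a group differed only little beyond sampling noise (chi-square per degree of freedom 1.21 to 1.35). Whether separate cultures would vary as little was not tested, and the small p-values rest on this small spread.

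The members, roles, the 128 other genes and the tests were chosen with earlier results of these data known. Full values are given for RNA polymerase I subunits, for the 2 members of each role with the largest called change in knockdown against control and between the rescues, and for members called against the majority there. Other genes of the pathway are named from the 3 largest called falls and rises with a mean of at least 5 CPM. Alternatives were DESeq2 1.42.0 size factors or Wald test, no low-count filter, only the groups compared, the replicate number as a block, a lowess offset (span 0.3) that removes the trend with gene length, and leaving out each library, the other of its group being assumed to vary like the rest. Steps were tested on simulated data. RefSeq promoters and GENCODE v29 transcripts are GRCh38, so no gene coordinates are given for the hg19 counts. Of the listed luminal markers, some are not reported here.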

Additional observations from a re-analysis of the deposited data

How the results depend on the processing

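Counts of members called lower kept their side in nearly all alternatives. They ranged over libraries left out in turn from 40 to 44 on knockdown, 13 to 17 for the wild-type rescue against the knockdown, 38 to 42 for the mutant rescue against the knockdown, 36 to 44 between the rescues (mutant against wild-type), 43 to 47 for the wild-type rescue against the control and 49 to 50 for the mutant against the control. The DESeq2 Wald test called 11 members lower in the wild-type rescue against the knockdown, where edgeR called 17, and 38, 38, 35, 40 and 49 in the other 5 comparisons in the order above; the cause was not tested. Leaving out libraries gave 0 to 1 members higher in the mutant rescue against the knockdown (1 without knockdown replicate 2, 0 with all libraries). Member calls that held over all 8 libraries left out numbered 38 of 45, 13 of 18, 36 of 42, 34 of 44, 41 of 47 and 49 of 50, and no called member changed sign in any alternative run. With the length trend removed the counts were 44, 19, 45, 44, 47 and 51.

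Among the 128 other genes, 9 rose on knockdown and 5 without knockdown replicate 1. In the wild-type rescue against the knockdown 19 fell and 6 rose, against 10 and 3 with DESeq2 and 3 rises with the length trend removed. Between the rescues 12 rose, against 4 with DESeq2 and 7 without wild-type rescue replicate 2. Against the control 8 rose in the wild-type rescue (5 with DESeq2 or without wild-type rescue replicate 1) and 9 in the mutant rescue (5 with DESeq2).

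Whether the replicate numbers pair the libraries is not stated in the labels. Deviations of same-numbered libraries correlated between -0.0457 and 0.0384 over 10398 genes, so no pairing was seen. As libraries of a group differed little beyond sampling noise, a weak pairing could be missed. With the replicate number as a block, the counts of members called lower stayed at 44 on knockdown and 44 between the rescues, and no member's call changed; other genes called lower went from 71 to 72 on knockdown and from 19 to 21 in the wild-type rescue against the knockdown. Depth limits the least counted member to 97 counts in a library, and 2 libraries a group limit the precision of every difference.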

Other observations

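The sequence GGACT, a common context of methylated adenosines in messenger RNA, stood at a median of 0.982 per kilobase in 1 GENCODE v29 transcript of each of the 53 members and 0.935 over 13252 tested genes with a transcript. Over the 53 members its density had a Spearman rho of -0.112 with the log2 fold change on knockdown and -0.106 with that between the rescues (mutant against wild-type), beside -0.0675 and 0.0787 over all those genes. These are descriptions over genes that share libraries, and methylation was not measured here.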
